A study of Mus musculus with 6 samples.

Results

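The transcripts described here encode the LKB1 complex and the subunits of the AMP-activated protein kinase (AMPK). The members are the 10 genes Stradb, Strada, Stk11, Cab39, Cab39l, Prkaa1, Prkaa2, Prkab1, Prkab2 and Prkag1, of 32053 gene names on the array. All non-control probes carrying one of these names were taken, which gave 14 probes of 55681, and each probe is reported on its own. RNA came from 1676 cells, a mouse pre-B cell line of genotype SLP-65-/- LAT-/-, which lacks a pair of signalling adaptors and is arrested at the pre-B stage. All cells were grown with an excess of the growth factor IL-7, infected with a retroviral vector and selected with puromycin. Of 6 single-colour Agilent arrays, 2 measured cells carrying the control vector, 2 cells expressing the human microRNA gene hsa-miR-26a-2, and 2 cells expressing a sponge, a transcript with repeated binding sites that sequesters miR-26 family members. The series describes 2 experiments with cells generated anew for each, so that 1 array of each group belongs to each experiment. All groups come from 1 cell line, and no probe of the array measures mature miR-26a, so the overexpression itself was not checked here.

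LKB1 (Stk11) is a tumour suppressor kinase that is active when bound to a STRAD pseudokinase (Strada or Stradb), a catalytically dead partner that holds LKB1 in its active shape and in the cytoplasm. The scaffold MO25 (Cab39 and Cab39l) stabilises this pair. The complex phosphorylates and thereby switches on AMPK and a set of related kinases. AMPK is built from a catalytic alpha subunit (Prkaa1, Prkaa2), a scaffolding beta subunit (Prkab1, Prkab2) and a gamma subunit that senses AMP and ATP (Prkag1), and in lymphocytes it is known for tuning growth and metabolism to the energy supply.

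MicroRNAs of 1 family share the seed, bases 2 to 8, through which they pair with target transcripts. The mature mouse sequences are shown because the probes were searched for matches to this seed. They are given 5′ to 3′ as in RefSeq (GRCm38.p6), with the seed in capitals.
mmu-miR-26a-5p: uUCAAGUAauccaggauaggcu
mmu-miR-26b-5p: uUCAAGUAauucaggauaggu
Both words that pair with the seed were searched on the sense strand of the 60-base probes. TACTTGA pairs with bases 2 to 8, and ACTTGAA is the match to bases 2 to 7 with an A as its last base. The words overlap and can lie in the same stretch. Among the 20168 probes tested, 0.441% held TACTTGA, 0.739% held ACTTGAA and 0.987% held either. Of the 14 member probes, 1 held a word, the Cab39l probe A_52_P264905, whose last 27 bases are printed with ACTTGAA in capitals.
Cab39l A_52_P264905 site: gtaagtactgtgagACTTGAAtgtgga
The search covered probes only, not whole transcripts, and a match is a stretch of letters and not a proven binding site.

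The authors deposited background-subtracted processed intensities of each array, and here these were quantile-normalized, put on a log2 scale and averaged per probe. Each array had 28823 to 29800 spots clearly over background by the scanner's own flag, and 0 saturated ones. All 14 member probes carried this flag on each of the 6 arrays and passed the filter on dim probes. The pre-B lineage markers Cd79a, Cd79b, Vpreb1, Igll1, Pax5 and Ebf1 carried it on every array with all 8 probes, and the log2 of their summed signal was 18.65 to 18.74 in control, 18.61 to 18.69 in miR-26a and 18.63 to 18.77 in sponge cells. Such a sum is set by its brightest probes, and Pax5 changed with miR-26a by -0.27 and -0.23 on its 2 probes, neither called (adjusted p = 0.0744 and 0.168). Of 4 T cell probes, those of Cd3g and Cd8a were at background on all arrays, while Cd3e was above it on all arrays. The T cell sum was 9.02 to 9.13 in control, 8.85 to 9.13 in miR-26a and 8.74 to 8.84 in sponge cells. Of 9 myeloid probes, 5 (for Csf1r, 2, and Itgam, 3) were above background on all arrays, with sums of 11.8 to 12.2 in control, 11.9 to 12.2 in miR-26a and 11.6 to 12.1 in sponge cells. The Itgam probe A_55_P1977929 fell with miR-26a by 0.82 on the log2 scale (adjusted p = 0.00720), while the brightest Itgam probe was at 0.06 (adjusted p = 0.744). In sponge cells A_55_P1977929 was also lower, at 7.17 and 7.40 against 7.78 and 7.83 in control. The Csf1r probe A_55_P2025078 read 7.20 and 7.53 in sponge cells and 8.18 and 7.95 in control. The Csf1r probe A_55_P2025073 read 7.25 and 7.22 in sponge cells, between the control arrays at 6.91 and 7.37. The part of other cell types in the results was not tested.

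The main comparison asked which members change when miR-26a is overexpressed. With miR-26a, Stradb fell on both of its probes, the 3′ probe of Cab39l and the Strada probe fell, and Prkab2 rose, while LKB1 itself, Cab39 and the catalytic subunits of AMPK passed the test in no probe. Of the 14 member probes, 4 were lower and 1 was higher than in control at an adjusted p under 0.05 (limma, all 6 arrays, experiment as a block, adjusted by Benjamini-Hochberg over all 20168 probes tested). Among all tested probes, 5.14% were lower and 4.5% were higher by the same rule. The median log2 change of the members was -0.14, against 0.01 over all tested probes. The arrays of both groups did not overlap for 8 of the 14 probes, and for 49.3% of all tested probes. In these bulk samples, fewer cells with a transcript and less of it per cell cannot be told apart.

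**Figure D1:**
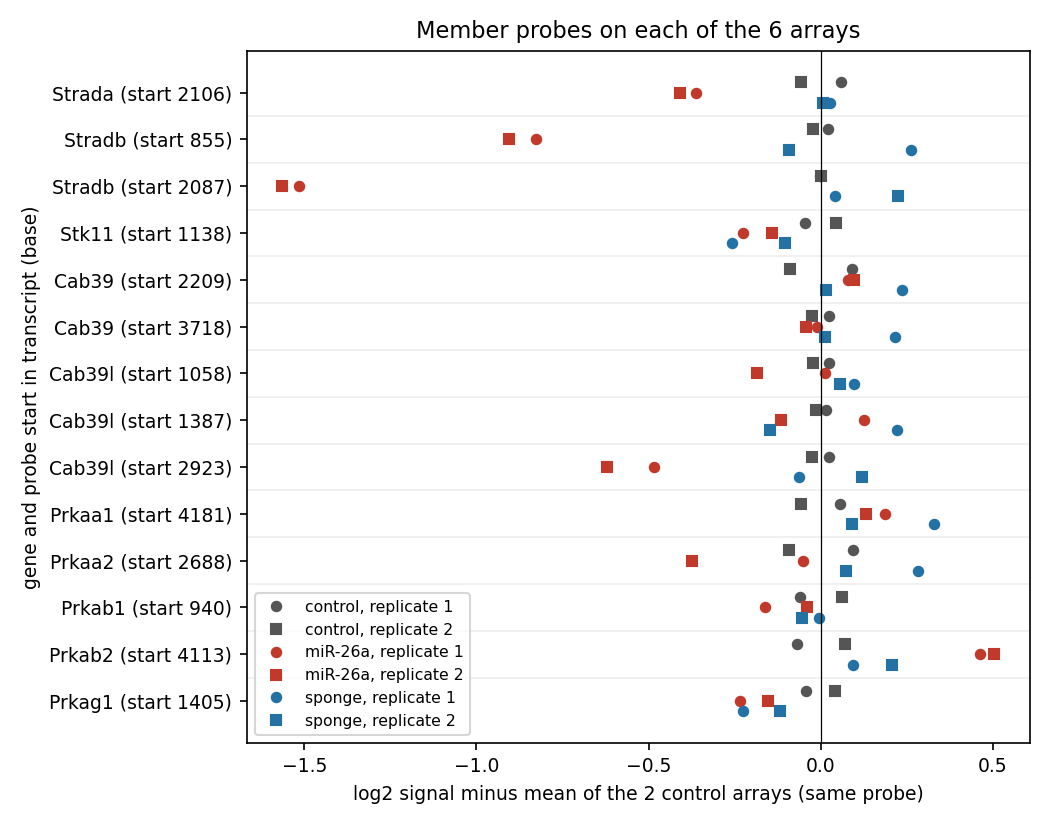
Log2 signal of each member probe on each array, on the x axis, as the difference from the mean of the 2 control arrays of that probe; circles are experiment 1, squares experiment 2, and the y axis names the gene and the base of the transcript where the probe starts. The miR-26a arrays stand far to the left for both Stradb probes, less so for Strada and the Cab39l probe starting at base 2923, and to the right for Prkab2.

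The pseudokinase Stradb gave the largest change among the members. Its probe A_52_P145349 starts at base 2087 of the transcript and lies at mm9 chr1:59051736-59051795 on the plus strand. Its log2 signal was 9.20 and 9.21 on the control arrays, 7.69 and 7.64 on the miR-26a arrays, and 9.25 and 9.43 on the sponge arrays. Both miR-26a arrays were far below all the others, and both sponge arrays were slightly above both control arrays. In linear processed intensity before normalization this was 595 and 567 in control, 204 and 195 in miR-26a and 601 and 736 in sponge cells. The fitted log2 change with miR-26a was -1.54 (SE 0.08, 95% interval -1.75 to -1.33, adjusted p = 0.00289), which left 34.4% of the control signal, and the experiments taken singly gave -1.51 and -1.57. It ranked at place 33 from the lowest among the 20168 tested probes. The call held when any 1 array was left out, with adjusted p up to 0.0463, and was lost when no filter on dim probes was applied (0.232) and in 2 tests that use the spread of this probe alone (0.220 and 0.386).

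The other Stradb probe, A_52_P129697, starts at base 855 and lies at mm9 chr1:59047913-59047972 on the plus strand. It is shown in full, 5′ to 3′, because it reads the transcript far upstream of the other probe. Like the other Stradb probe, it holds neither seed word.
Stradb A_52_P129697: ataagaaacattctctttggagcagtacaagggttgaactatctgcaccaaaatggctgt
This probe read 6.96 and 6.91 on the control arrays, 6.11 and 6.03 on the miR-26a arrays and 7.20 and 6.84 on the sponge arrays. The miR-26a arrays again lay below all others, and the sponge arrays lay on both sides of the control arrays. The change was -0.87 (SE 0.10, 95% interval -1.11 to -0.62, adjusted p = 0.00968), or 54.8% of control, with -0.85 and -0.89 in the separate experiments. Without control replicate 1 or without control replicate 2 this call was lost, at adjusted p = 0.0699 and 0.0887. With normexp background correction the change shrank to -0.54 and was still called (adjusted p = 0.00418).

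Strada, the paralogue that can take the same place beside LKB1, also fell, by less. Its probe A_55_P2169059 starts at base 2106 and lies at mm9 chr11:106024665-106024724 on the minus strand. The log2 signals were 12.54 and 12.42 in control, 12.12 and 12.07 in miR-26a and 12.51 and 12.49 in sponge cells. Both miR-26a arrays were the lowest, while the sponge arrays lay between the control arrays. The change was -0.38 (SE 0.07, 95% interval -0.55 to -0.21, adjusted p = 0.0292), or 76.6% of control. Leaving out any 1 of the 6 arrays ended this call, with adjusted p between 0.0584 and 0.236, and so did the fit without the experiment as a block (0.0918).

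Stk11, which encodes LKB1, was measured by 1 probe that starts at base 1138, at mm9 chr10:79590785-79590844 on the plus strand. It read 11.84 and 11.93 in control, 11.66 and 11.74 in miR-26a and 11.63 and 11.78 in sponge cells. The arrays of both constructs lay below both control arrays and among each other. The change was -0.18 with miR-26a (95% interval -0.35 to -0.02, adjusted p = 0.154) and -0.18 with the sponge (95% interval -0.35 to -0.01, adjusted p = 0.293), and neither was called.

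The MO25 scaffold is encoded by Cab39 and Cab39l, with 5 probes in all, of which 1 was called with miR-26a. Over all tested probes 9.64% were called in either direction. The Cab39l probe A_52_P264905, which carries the word ACTTGAA shown above, starts at base 2923 and lies at mm9 chr14:60167627-60167686 on the plus strand. It read 11.90 and 11.84 in control, 11.39 and 11.25 in miR-26a and 11.81 and 11.99 in sponge cells. The miR-26a arrays were the lowest and the sponge arrays enclosed the control arrays. The change was -0.55 (SE 0.10, 95% interval -0.79 to -0.31, adjusted p = 0.0275), or 68.2% of control. The call was lost without control replicate 1 (adjusted p = 0.197), without control replicate 2 (0.155), without miR-26a replicate 2 (0.0757) and without the block (0.0664).

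The remaining Cab39l probes read parts of the transcript nearer its 5′ end. The probe starting at base 1058, at mm9 chr14:60157982-60158041, read 10.71 and 10.67 in control, 10.70 and 10.51 in miR-26a and 10.79 and 10.75 in sponge cells. Its change with miR-26a was -0.09 (95% interval -0.27 to 0.10, adjusted p = 0.529). The probe starting at base 1387, at mm9 chr14:60166091-60166150, read 11.60 and 11.57 in control, 11.71 and 11.47 in miR-26a and 11.80 and 11.44 in sponge cells. Its change was 0.0049 (95% interval -0.24 to 0.25, adjusted p = 0.984), and the experiments gave opposite signs. When the 3 Cab39l probes were averaged, the gene was at -0.21 (adjusted p = 0.119), not called.

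Cab39, which encodes the alpha form of MO25, passed no test, and on both probes the arrays of each construct overlapped those of control. The probe starting at base 2209, at mm9 chr1:87746562-87746621, read 11.13 and 10.95 in control, 11.12 and 11.13 in miR-26a and 11.27 and 11.05 in sponge cells, a change of 0.09 with miR-26a (95% interval -0.12 to 0.30, adjusted p = 0.570). The probe starting at base 3718, at mm9 chr1:87748071-87748130, read 12.98 and 12.93 in control, 12.95 and 12.92 in miR-26a and 13.17 and 12.97 in sponge cells, a change of -0.03 (95% interval -0.22 to 0.16, adjusted p = 0.877). Both intervals lie above the Strada estimate of -0.38. The interval of the Cab39 probe at base 3718 overlaps that of the Strada probe, which ends at -0.21. The difference between these genes was not tested.

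Among the subunits of AMPK, Prkab2 was the only one of 5 called in miR-26a cells, and it was higher. By the same rule, 9.64% of all tested probes were called in either direction. Prkab2 encodes a beta subunit, which tethers the alpha and gamma subunits. Its probe A_52_P126266 starts at base 4113 and lies at mm9 chr3:97476843-97476902 on the plus strand. It read 8.08 and 8.22 in control, 8.62 and 8.66 in miR-26a and 8.25 and 8.36 in sponge cells. Both miR-26a arrays were above all others, and the sponge arrays were above the control arrays by a smaller step. The change was 0.48 (SE 0.07, 95% interval 0.31 to 0.65, adjusted p = 0.0166), or 140% of control. Without control replicate 1 or without control replicate 2 the call was lost, at adjusted p = 0.161 and 0.126, as it was without the block (0.0704).

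The other beta subunit, Prkab1, was read by a probe starting at base 940, at mm9 chr5:116464650-116464709. Its signals overlapped between all groups, with 9.25 and 9.37 in control, 9.15 and 9.27 in miR-26a and 9.30 and 9.26 in sponge cells. The change with miR-26a was -0.10 (95% interval -0.29 to 0.09, adjusted p = 0.466).

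The catalytic subunits did not pass the test in miR-26a cells, and their estimates had opposite signs. Prkaa1 (probe start 4181, mm9 chr15:5131426-5131485) read 10.82 and 10.70 in control, 10.95 and 10.89 in miR-26a and 11.09 and 10.85 in sponge cells. The change was 0.16 with miR-26a (95% interval -0.03 to 0.35, adjusted p = 0.249). Prkaa2 (probe start 2688, mm9 chr4:104707708-104707767) read 6.89 and 6.70 in control, 6.74 and 6.42 in miR-26a and 7.08 and 6.87 in sponge cells. Its change was -0.21 (95% interval -0.39 to -0.03, adjusted p = 0.132), and miR-26a and control arrays overlapped.

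The gamma subunit Prkag1 was printed as 10 spots of 1 probe on every array (probe start 1405, mm9 chr15:98643402-98643461), which gives a view of the technical spread. Within 1 array the spots had an SD between 0.07 and 0.13 on the log2 scale, with 7 unflagged spots on the array of sponge replicate 1 and 10 on each of the others. The averages were 12.07 and 12.15 in control, 11.88 and 11.96 in miR-26a and 11.88 and 11.99 in sponge cells. All control arrays were above all arrays of both constructs. The change was -0.19 with miR-26a (95% interval -0.36 to -0.03, adjusted p = 0.129) and -0.17 with the sponge (95% interval -0.33 to -0.01, adjusted p = 0.297), and neither was called.

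**Figure D2:**
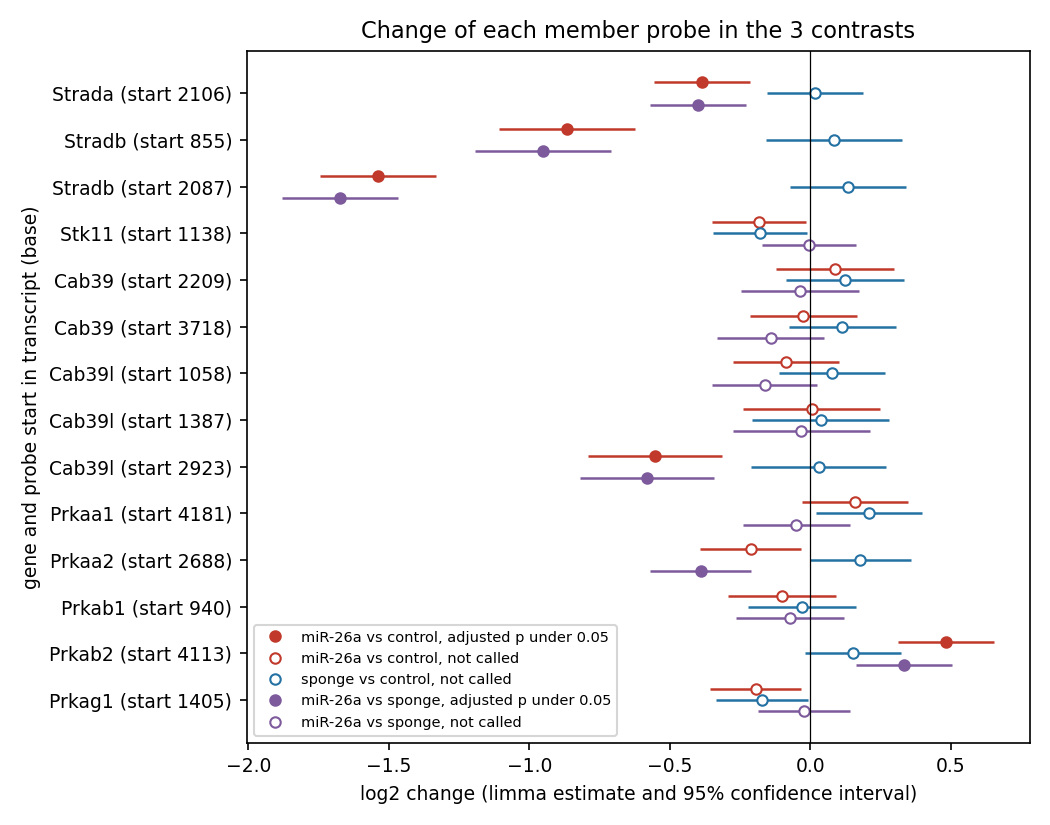
Log2 change of each member probe on the x axis with its 95% interval from limma, for miR-26a against control (red), sponge against control (blue) and miR-26a against sponge (purple); filled circles have an adjusted p under 0.05, and the y axis names gene and probe start. Stradb reaches -1.54 and -0.87 in red, and all sponge circles are open, between -0.18 and 0.21.

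The question of the sponge is whether sequestering the endogenous miR-26 family moves the same transcripts, and the comparison shares its control arrays with that of miR-26a. The control cells carried an empty vector. No array measured a sponge with scrambled binding sites, the control of the paper's other sponge assays. No member was called in sponge cells. By limma 0 of 14 probes passed an adjusted p under 0.05, and 3 had an unadjusted p under 0.05, namely Stk11 and Prkag1 with negative and Prkaa1 with a positive estimate. Over all tested probes 0.00992% were called and 16.1% had an unadjusted p under 0.05. The arrays of sponge and control did not overlap for 6 of the 14 member probes, against 37.7% of all tested probes.

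The sponge estimates for the probes called with miR-26a lay between 0.02 and 0.15, and none was called. For the Stradb probe at base 2087 the change was 0.13 (95% interval -0.07 to 0.34, adjusted p = 0.467), and for the Stradb probe at base 855 it was 0.08 (95% interval -0.16 to 0.33, adjusted p = 0.689). Strada changed by 0.02 (95% interval -0.15 to 0.19) and the Cab39l probe at base 2923 by 0.03 (95% interval -0.21 to 0.27). Prkab2 was at 0.15 (95% interval -0.02 to 0.32, adjusted p = 0.351). The order of the Stradb levels was miR-26a lowest, then control, then sponge, and the step from control to sponge was within its error.

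The miR-26a and sponge cells were also compared directly, a contrast that shares the miR-26a and sponge arrays with the comparisons above and so adds no independent arrays. In it, 5 member probes were lower in miR-26a cells and 1 was higher, where 8.49% of all tested probes were lower and 8.28% were higher. Both Stradb probes (-1.67 at base 2087 and -0.95 at base 855), the Cab39l probe at base 2923 (-0.58), Strada (-0.40) and Prkaa2 (-0.39) were lower, and Prkab2 (0.33) was higher. Prkaa2 was called in this contrast and not against control. Its miR-26a arrays read 6.74 and 6.42, both below the sponge arrays at 7.08 and 6.87 (SE 0.07, adjusted p = 0.0233). Its estimates against control were -0.21 with miR-26a and 0.18 with the sponge, neither called. Without miR-26a replicate 1 the Prkaa2 call held, while without any other array it was lost (adjusted p up to 0.109), as it was with normexp background correction (-0.23, adjusted p = 0.0680) and without the block (adjusted p = 0.185). The Prkab2 call in this contrast was lost without any 1 array, with adjusted p from 0.0613 to 0.134, and without the block (0.102). The Strada call was lost without miR-26a replicate 1 (0.0593), without sponge replicate 1 (0.0895), without sponge replicate 2 (0.0971) and without the block (0.0539). The Cab39l call was lost without sponge replicate 1 (0.0503), without sponge replicate 2 (0.0800) and when the probes of the gene were averaged (0.0580).

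Stradb, Cab39l and Cab39 have several probes along 1 transcript, which allowed a comparison of the 3′-most with the 5′-most probe. This comparison was chosen after the values were seen. With miR-26a, the log2 change of the 3′ probe minus that of the 5′ probe was -0.67 for Stradb (SE 0.14), -0.47 for Cab39l (SE 0.09) and -0.11 for Cab39 (SE 0.09). None of these differences passed the test (limma, adjusted p = 0.139, 0.133 and 0.799). It covered 2369 probe pairs, 1 for each combination of gene and transcript, of which 0.718% were called. With normexp background correction the differences of Stradb (-0.78, adjusted p = 0.00126) and Cab39l (-0.46, adjusted p = 0.0301) did pass, where 1.86% of pairs were called. In sponge cells the differences were 0.05 for Stradb, -0.05 for Cab39l and -0.01 for Cab39. With 1 array left out, they ranged from -0.20 (without sponge replicate 2) to 0.30 (without sponge replicate 1) for Stradb and from -0.14 to 0.05 for Cab39l (without the same arrays). The Stradb probe at base 855 is dim, at 6.03 to 7.20 on the log2 scale, and its change went from -0.87 to -0.54 with normexp, where that of the probe at base 2087 went from -1.54 to -1.32.

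**Figure D3:**
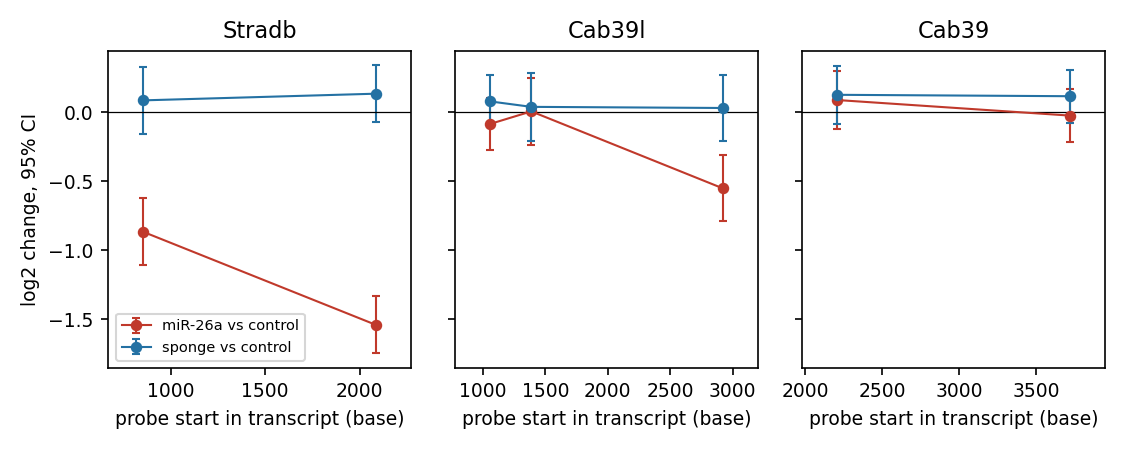
Log2 change with its 95% interval (y axis) against the base of the transcript where the probe starts (x axis) for the 3 members with several probes, for miR-26a (red) and sponge (blue) against control. Red values for Stradb go from -0.87 at base 855 to -1.54 at base 2087 and those for Cab39l from -0.09 at base 1058 to -0.55 at base 2923. Blue values lie between 0.03 and 0.13.

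Other genes of the pathway were described from lists of 37 genes with 60 probes, of which 47 probes of 30 genes passed the filter. With miR-26a, 4 of these 47 probes were lower and 2 were higher, where 5.14% and 4.5% of all tested probes were. With the sponge 0 were called (limma), and 9 had an unadjusted p under 0.05, where 16.1% of all tested probes did. Their median log2 change with miR-26a was 0.07, against 0.01 over all tested probes. For the 7 genes Brsk1, Brsk2, Fnip2, Mark1, Prkag3, Sik1 and Tsc2 no probe was tested.

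The calls lay among AMPK substrates and AMPK regulators. Of 18 substrate probes, 3 were lower and 2 were higher with miR-26a, beside the same 5.14% and 4.5%. Pfkfb3, an enzyme that makes an activator of glycolysis, was lower on both probes. Its brighter probe A_55_P2116165 read 12.37 and 12.39 in control, 11.58 and 11.57 in miR-26a and 12.63 and 12.51 in sponge cells, a change of -0.80 (SE 0.07, adjusted p = 0.00663), or 57.3% of control. The miR-26a arrays were the lowest and the sponge arrays the highest. The sponge change of this probe, 0.19, was not called (limma, adjusted p = 0.2975). The dimmer Pfkfb3 probe A_52_P362917 changed with miR-26a by -0.70 (SE 0.13, adjusted p = 0.0354), and by -0.43 with normexp. In sponge cells it went the other way from the brighter probe, at 6.68 and 6.76 against 6.93 and 6.85 in control. That change of -0.17 was not called either (limma, adjusted p = 0.552). Rptor, the raptor scaffold of the mTORC1 kinase complex, read 12.79 and 12.77 in control, 12.41 and 12.43 in miR-26a and 12.77 and 12.87 in sponge cells, a change of -0.36 (SE 0.07, adjusted p = 0.0365).

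Acaca, the acetyl-CoA carboxylase that makes the building block of fatty acids and is inhibited by AMPK, rose on 2 of its 4 probes. Its probe A_55_P2084706 read 12.70 and 12.60 in control, 13.04 and 12.91 in miR-26a and 12.72 and 12.62 in sponge cells, a change of 0.32 (SE 0.07, adjusted p = 0.0404). The probe A_55_P2084703 changed by 0.47 (adjusted p = 0.0260), which shrank to 0.24 with normexp background correction and was no longer called (adjusted p = 0.0665). The remaining Acaca probes were at 0.29 (adjusted p = 0.0621) and 0.31 (adjusted p = 0.0529), not called. All 4 Acaca estimates were thus positive, between 0.29 and 0.47.

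Of 10 probes for AMPK regulators, 1 was called with miR-26a, where 9.64% of all tested probes were called in either direction. Sesn3, a stress-induced sestrin that promotes AMPK activity, read 9.62 and 9.71 in control, 9.22 and 9.26 in miR-26a and 9.59 and 9.68 in sponge cells. Its change was -0.42 (SE 0.07, adjusted p = 0.0216). The miR-26a arrays were below all others. None of the 12 probes for the AMPK-related kinases that LKB1 also activates was called with miR-26a against control. They read Mark2, Mark3, Mark4, Nuak1, Nuak2, Sik2, Sik3 and Snrk, with changes between -0.18 and 0.37. The highest was that of Sik2 (0.37, adjusted p = 0.061 by limma). Nor was any of the 6 probes for the other kinases upstream of AMPK (Camkk1, Camkk2 and Map3k7) called, with changes between -0.23 and 0.27. The gamma subunit Prkag2 was at 0.14 (adjusted p = 0.363). Each of these calls was lost when either control array was left out, and 1 of the 47 probes was called without the block.

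Between miR-26a and sponge cells, 5 of the 47 probes were lower and 5 were higher with miR-26a, where 8.49% and 8.28% of all tested probes were. Lower were the brighter Pfkfb3 probe (-0.99), Rptor (-0.40), Sesn3 (-0.39), Ulk1 (-0.47), the kinase that starts autophagy, and Camkk1 (-0.50), a calcium-dependent kinase upstream of AMPK. Higher were Acaca on 3 probes (0.30 to 0.73), the AMPK-related kinase Nuak1 (0.34) and 1 of 3 probes of Sik3 (0.30). Of these calls only that of Pfkfb3 held without either sponge array, and 3 held without the block. Nuak1, Sik3, Camkk1 and Ulk1 were not called against control in either construct. The Acaca probes at 0.73 and 0.60 are dim, at 5.56 to 6.53 on the log2 scale. With normexp they were at 0.395 and 0.303, still called. The brighter Acaca probes were at 0.30 and 0.26, the latter not called. The called Sik3 probe is also dim, at 6.98 to 7.54, and its call was lost with normexp (limma, adjusted p = 0.118). The brighter Sik3 probes were at 0.006 and -0.033, not called.

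**Figure D4:**
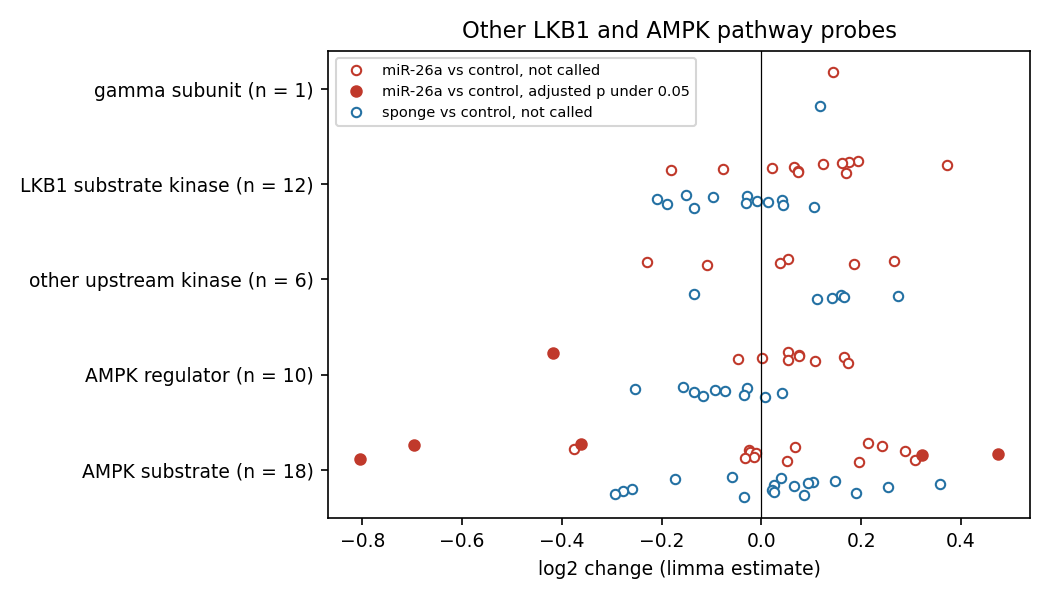
Log2 change (x axis) of each tested probe of the other pathway genes, grouped by list on the y axis with the number of probes, for miR-26a (red) and sponge (blue) against control; filled circles have an adjusted p under 0.05. The 6 filled circles lie between -0.80 and 0.47, and no blue circle is filled.

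The probes most like Stradb over the arrays were found by the root mean square difference from the Stradb probe at base 2087 over 4 log2 ratios, those of miR-26a and sponge to control in each experiment. The 5 nearest named genes outside the members were Capsl (0.09), Vsig8 (0.12), Tmem132e (0.12), Ypel1 (0.14) and Trp53inp1 (0.15). With miR-26a these changed by -1.51, -1.40, -1.45, -1.73 and -1.61, and with the sponge by 0.05, 0.22, 0.01, 0.19 and 0.12. Under normexp background correction Ypel1 changed by -0.705 with miR-26a. Among the members, the nearest to it were the other Stradb probe, at 0.51, and the Cab39l probe at base 2923, at 0.70.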

How the data were processed

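The authors deposited the scanner output of 6 arrays (mouse 60-base probes, Cy3), made with Agilent Feature Extraction (10.7.1.1 in the submitters' processing notes, 10.7.3.1 in the file headers), and a table of quantile-normalized linear intensity, used as an alternative. The unit used is the deposited background-subtracted processed intensity. It was quantile-normalized, flagged spots were removed, log2 was taken and the spots of a probe were averaged. A probe was tested when flagged as clearly above background on at least 1 array and when its signal exceeded 50 on at least 4 arrays (20168 probes). Between 29.6% and 33.6% of spots per array sat at the lowest value of the software. Gene names and positions (mm9) come from the array design; exon and UTR annotation was not used here.

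limma 3.58.1 (R 4.3.3) was fitted over the 6 arrays, with a block for the experiment, following the methods, which normalize to the control of each experiment, with Benjamini-Hochberg adjustment and a limit of 0.05. Same-numbered arrays deviated together (r = 0.38, 0.59 and 0.45 across probes). All arrays were on 1 slide with 1 scan time; replicate 1 arrays were in one row of the slide and replicate 2 arrays in the other, so experiment and slide row cannot be told apart. The control titles quote other sample accessions and may belong to an earlier series. Groups came from the sample labels. The number of arrays limits the precision.

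The members, the pathway and marker lists, the tests and the alternatives were chosen with earlier results of these data known. Some markers of the lists are not reported here. All member probes are given, pathway probes are named when called against control, and 5 probes were named by likeness to Stradb. The Acaca and Sik3 probes not called and the kinases listed as not called were named after their values were seen. So were the pathway probes called between the constructs and the Pax5, Itgam and Csf1r probes. Scripts were tested on simulated data, and ran with Python 3.11.15, numpy 2.4.6, pandas 2.3.3 and matplotlib 3.10.9.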

Additional observations from a re-analysis of the deposited data

How the results depend on the processing

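Over 17 alternatives, the 14 member probes gave 578 values for miR-26a and sponge against control and for the called probes of the direct contrast. None of the called member values changed sign, and the 18 sign changes, in 8 probe and contrast pairs, were of values near 0 with adjusted p of at least 0.119. These reached 0.001 for the Cab39 probe at base 3718 with 75th percentile scaling and 0.031 when probes of a gene were averaged, and -0.211 for the Cab39l probe at base 1387 when averaged. Leaving out 1 array gave ranges that cross 0 with miR-26a for both Cab39 probes (-0.021 to 0.195 and -0.072 to 0.021) and the Cab39l probe at base 1387 (-0.133 to 0.143), and with the sponge for Prkab1 (-0.114 to 0.057), Strada (-0.025 to 0.059), the Stradb probe at base 855 (-0.062 to 0.231) and the Cab39l probes at base 2923 (-0.109 to 0.168) and base 1387 (-0.101 to 0.176).

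The number of calls depended more on the fit. Without the replicate block, 2 member probes were called with miR-26a, both of Stradb, 3 against the sponge, 1 pathway probe with miR-26a and 3 against the sponge, and over all tested probes 311 with miR-26a and 997 against the sponge. With no filter on dim probes, with an unpaired test on each probe alone and with a test of the 2 log ratios, 0 probes of any set were called in any contrast, although 5, 4 and 6 member probes had an unadjusted p under 0.05 and a negative estimate with miR-26a, as did 5.69%, 6.6% and 5.43% of all probes tested in these settings. Averaging the probes of a gene left 3 of the 10 member genes with miR-26a (Stradb, Strada and Prkab2). Of all 14879 gene names in this setting, 817 were lower and 787 were higher with miR-26a, and 0 were called with the sponge. Array weights gave 10 pathway probes with miR-26a in place of 6, and 13.3% of all tested probes in place of 9.64%. Over all tested probes the sponge gave 2 calls, 12 with 75th percentile scaling, 36 with normexp and 10 with a signal over 50 on at least 2 arrays. With 1 array left out, the calls with miR-26a were 1 to 4 of the members, 0 to 4 of the pathway probes and 104 to 1599 of all tested probes, the lowest in each case without a control array, and against the sponge they were 2 to 4 of the members, 1 to 6 of the pathway probes and 410 to 2436 of all. The sponge against control gave 0 to 35 of all. The fit with 1 array left out assumes that the lone array of a group varies like the other groups. The cause of these differences was not tested.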
